A study of Mus musculus with 24 samples.

Results

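Gene expression in the dentate gyrus was compared between drug-treated APP/PS1 mice (BCI-838) and wild-type (WT) mice, to find what still differs from WT after the drug. The labels give genotype and treatment, and by these 4 libraries from BCI-838-treated APP/PS1 mice and 5 from WT controls were chosen, which makes 9 of the 24 libraries of the series. Treated mice received 5 mg/kg of BCI-838 orally each day for 1 month and had no running wheel. The WT mice were C57BL6/J and had neither drug nor wheel. The other libraries were 5 from APP/PS1 controls, which carry the same transgenes without drug or wheel, 5 with a wheel alone and 5 with wheel and drug, all of them APP/PS1. All of them enter the estimate of the spread, and the APP/PS1 controls are also shown beside the results. Replicates are described as separate mice. The sources used here do not give the age or sex of the mice, or whether the WT controls received vehicle. Treated mice differ from WT in both genotype and drug, so a difference in this comparison cannot be assigned to either one without the APP/PS1 controls.

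APP/PS1 mice carry transgenes of familial Alzheimer's disease, among them a mutant amyloid precursor protein, and form amyloid plaques. The sample descriptions carry the name Borchelt, and in the APP/PS1 lines of that name the transgenes are driven by sequences of the mouse prion protein gene Prnp. BCI-838 is a pro-drug, and its active form blocks mGluR2 and mGluR3, metabotropic glutamate receptors that can dampen glutamate release. The dentate gyrus is the entry gate of the hippocampus. Its granule cells receive input from the entorhinal cortex, and neural stem cells at the base of their layer add new granule cells in adult life.

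Total counts were between 48656360 and 58708383 in these 9 libraries. Levels are CPM, the usual depth-scaled unit, with library sizes adjusted by a trimmed-mean (TMM) factor, and replicates are numbered as in the labels. The granule cell markers were present in every library, with Prox1, a transcription factor that defines these cells, between 14.2 and 151 CPM in WT. WT replicate 3 was the lowest, with a summed level of 1155 CPM over 22 granule cell markers against at least 1656 CPM in the other libraries of the comparison. Markers of a neighbouring region also varied. The summed level of 20 dorsal midbrain transcription factors was 133, 15.3, 16.6, 19.1 and 65.9 CPM in WT replicates 1 to 5, and 110, 70.2, 132 and 144 CPM in treated replicates 1 to 4. Pax7, a defining gene of that list, was under 1 CPM in WT replicates 2, 3 and 4, at 9.45 and 3.47 CPM in WT replicates 1 and 5, and between 6.73 and 13.4 CPM in the treated libraries. Ttr, the main transcript of choroid plexus, stayed between 0.573 and 15.6 CPM in both groups. The genes called, and the next ones in order, are therefore given with and without the 3 WT libraries that are low in Pax7, a choice made after seeing the data. Bulk RNA cannot tell fewer cells of a type from less RNA per cell.

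**Figure D1:**
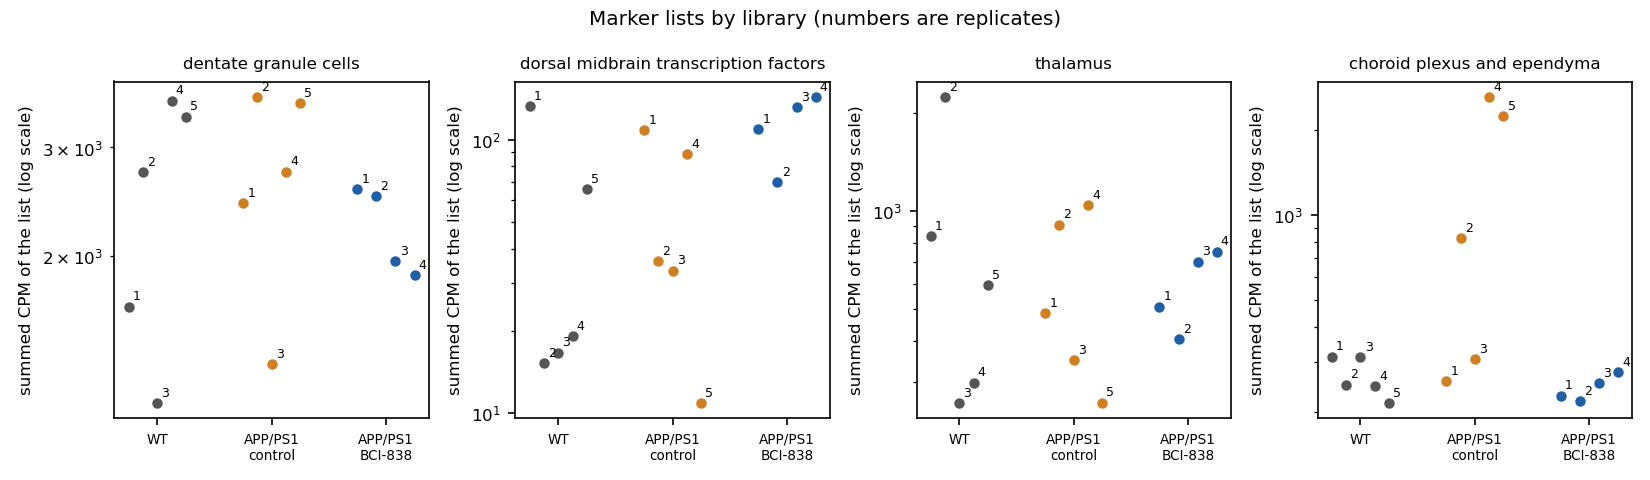
Summed CPM of the granule cell, dorsal midbrain, thalamus and choroid plexus marker lists (log axes), 1 point per library of the WT, APP/PS1 control and BCI-838-treated APP/PS1 groups, with replicate numbers. The midbrain list is low in WT replicates 2, 3 and 4 (15.3 to 19.1 CPM) and 70.2 CPM or higher in the 4 treated libraries.

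After treatment with BCI-838, 6 genes differed from WT in the dentate gyrus. App, the gene of the transgene, and Prnp, the gene whose sequences drive it in lines of the Borchelt name, were 2.05-fold and 2.34-fold higher. Cass4, a scaffold protein of the Cas family at cell adhesions, was 3.29-fold higher. Krt20 and Krt12, keratins best known from gut and corneal epithelium, were 3.14-fold and 2.48-fold lower. Wnt9a, a secreted Wnt ligand, was 4.89-fold lower. The test was the quasi-likelihood F test of edgeR over 18286 genes with Benjamini-Hochberg adjustment, and a gene was called at an adjusted p under 0.05. The 6 calls are 0.0328% of the genes tested, with 3 higher (0.0164%) and 3 lower (0.0164%). An unadjusted p under 0.05 was found for 1366 genes (7.47%), of which 571 were higher (3.12%) and 795 lower (4.35%). With DESeq2 75 genes passed, 25 higher and 50 lower, and limma voom with quality weights called 181, 72 higher and 109 lower. Each of these larger sets held all 6. Of all genes tested, 48.8% had a log2 fold change above 0. Counts in the gene lists below are to be read beside these shares and calls over all genes. Without the 3 WT libraries low in Pax7, edgeR called 2 genes, App and Prnp. With the dorsal midbrain list as a covariate it called 3, Prnp, App and Cass4, while the log2 fold changes of the genes no longer called were -1.58 for Krt20, -1.16 for Krt12 and -2.30 for Wnt9a.

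**Figure D2:**
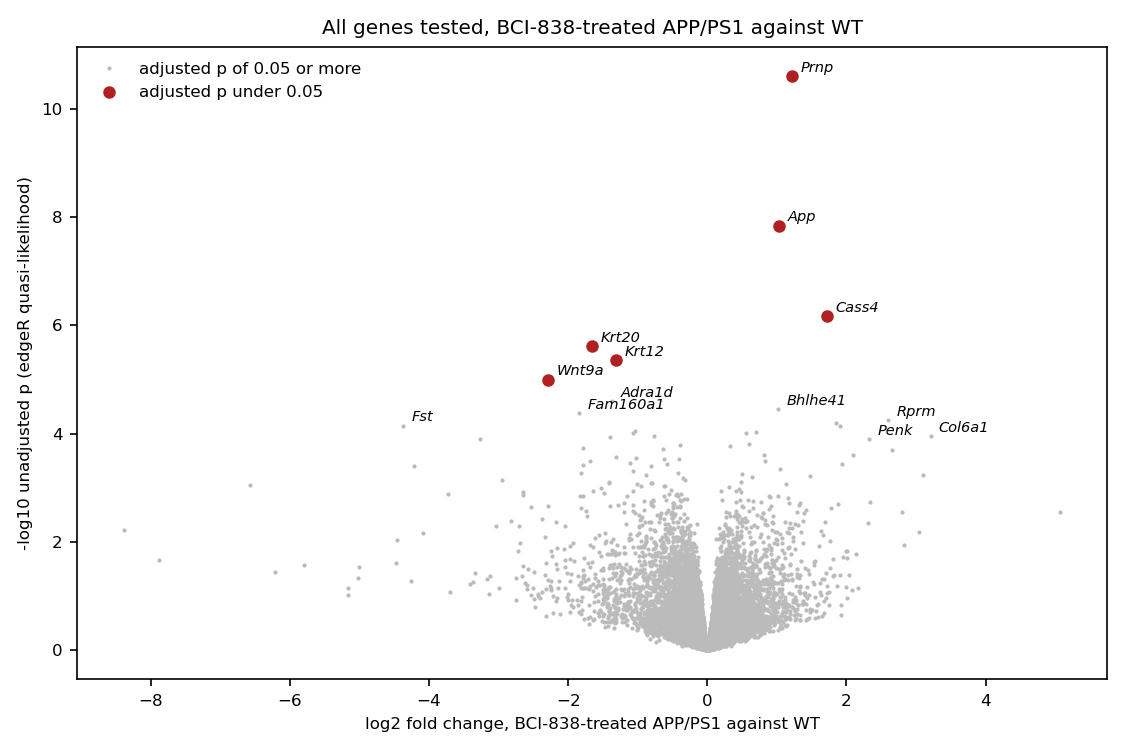
Log2 fold change of BCI-838-treated APP/PS1 against WT (x) and -log10 of the unadjusted p (y) for each of the 18286 genes, with the 6 called genes and others named in the text marked. Prnp and App stand highest, and Cass4, Krt20, Krt12 and Wnt9a are the other 4 with an adjusted p under 0.05.

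For context, the same fit called 2 genes in APP/PS1 controls against WT (0.0109%), Prnp and App, with 504 (2.76%) at an unadjusted p under 0.05, 366 higher (2%) and 138 lower (0.755%). Between treated APP/PS1 mice and APP/PS1 controls edgeR called 0 genes (0%), with 1863 (10.2%) at an unadjusted p under 0.05, 773 higher (4.23%) and 1090 lower (5.96%). In that comparison 170 genes passed in DESeq2 and 483 in voom. Ttr was at 425, 1615 and 1269 CPM in APP/PS1 control replicates 2, 4 and 5. In control replicates 1 and 3 it was at 5.05 and 1.62 CPM. It was also high in replicate 5 with wheel and drug (297 CPM). Without the libraries over 100 Ttr CPM, treated mice against APP/PS1 controls gave 0 calls and 1024 genes at an unadjusted p under 0.05. The 3 comparisons share libraries, so their values are set side by side and not tested for overlap.

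The transgene and its driver gene check the genotype labels. Prnp, on chr2:131909928-131938429 in GRCm38, was at 755, 911, 985, 802 and 775 CPM in WT and at 2116, 2160, 1912 and 1712 CPM in treated mice. Every treated library lay above every WT library. The log2 fold change was 1.22 (SE 0.10, adjusted p = 4.48e-07), and against APP/PS1 controls it was -0.02 (adjusted p = 0.963). App, on chr16:84949685-85173766, was at 1759, 1826, 2073, 1531 and 1452 CPM in WT and at 3523, 3826, 3550 and 3268 CPM in treated mice. The groups did not overlap, and the log2 fold change was 1.03 (SE 0.12, adjusted p = 0.000131). Against APP/PS1 controls App differed by 0.07 on the log2 scale (adjusted p = 0.892). Without the 3 WT libraries low in Pax7 the log2 fold change against WT was 1.36 for Prnp (adjusted p = 3.17e-05) and 1.14 for App (adjusted p = 0.00541). Of the 20 measured genes of APP processing, App alone was called, and it was also the only one with an unadjusted p under 0.05. The list's median log2 fold change was -0.02, beside -0.01 over all genes.

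The receptors that the drug acts on showed no called difference. Grm2, which encodes mGluR2, was at 88.8, 114, 42.1, 122 and 142 CPM in WT and at 80.8, 100.3, 81.8 and 80.5 CPM in treated mice. The treated levels lay within the WT range (log2 fold change -0.24, SE 0.32, adjusted p = 0.914). Grm3, which encodes mGluR3, was between 42.6 and 53.8 CPM in WT and between 46.2 and 49.5 CPM in treated mice (log2 fold change 0.04, SE 0.18, adjusted p = 0.984). Among 26 measured genes of metabotropic glutamate receptors and their Gi signalling, edgeR and DESeq2 called 0 and voom called 1, Adcy1. An unadjusted p under 0.05 was found for 2 (7.69%), near the 7.47% of all genes. Adcy1, a calmodulin-stimulated adenylyl cyclase abundant in granule cells, was at 1565, 2170, 1500, 2909 and 2586 CPM in WT. Its treated levels of 1445, 1280, 1253 and 929 CPM were all lower (log2 fold change -0.81, SE 0.23, adjusted p = 0.316).

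The promoters of the 4 called genes outside the transgenes are shown because these are the called genes that are no part of the transgene constructs. Each is the 250 bases before the RefSeq gene start in GRCm38.p6, written in the direction of transcription: chr2:172393394-172393643 on the plus strand for Cass4, chr11:99438154-99438403 on the minus strand for Krt20, chr11:99422260-99422509 on the minus strand for Krt12, and chr11:59306680-59306929 on the plus strand for Wnt9a. Capitals mark matches to 4 motifs searched on both strands: the E-box CACGTG, the cyclic AMP response element TGACGTCA, the TATA box TATAAA and the D-box TTATGTAA.
Cass4: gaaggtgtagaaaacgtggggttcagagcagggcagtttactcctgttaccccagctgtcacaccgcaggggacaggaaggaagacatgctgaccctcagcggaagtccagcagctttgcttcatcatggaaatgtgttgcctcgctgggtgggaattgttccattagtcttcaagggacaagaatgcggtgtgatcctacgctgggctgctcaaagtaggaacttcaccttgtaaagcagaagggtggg
Krt20: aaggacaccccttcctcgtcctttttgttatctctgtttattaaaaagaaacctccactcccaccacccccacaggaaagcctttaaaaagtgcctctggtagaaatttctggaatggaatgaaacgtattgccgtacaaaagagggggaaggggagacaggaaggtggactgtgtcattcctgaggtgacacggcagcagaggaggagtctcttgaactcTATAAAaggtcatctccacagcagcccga
Krt12: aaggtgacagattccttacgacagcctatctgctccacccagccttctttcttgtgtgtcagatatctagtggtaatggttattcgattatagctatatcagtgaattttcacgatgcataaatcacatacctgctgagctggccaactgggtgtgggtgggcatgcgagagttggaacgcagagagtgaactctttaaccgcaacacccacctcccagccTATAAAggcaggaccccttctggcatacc
Wnt9a: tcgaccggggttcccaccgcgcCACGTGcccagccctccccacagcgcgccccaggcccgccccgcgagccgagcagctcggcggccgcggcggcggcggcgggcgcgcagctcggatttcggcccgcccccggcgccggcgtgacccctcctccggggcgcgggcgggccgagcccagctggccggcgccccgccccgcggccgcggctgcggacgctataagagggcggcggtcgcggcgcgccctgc
The Krt20 and Krt12 promoters each hold a TATA box that starts 29 bases before the gene start. The Wnt9a promoter holds an E-box 228 bases before the start and has a GC content of 84.4%, against 48% for Krt20, 48.4% for Krt12 and 52.8% for Cass4. Cass4 has none of the 4 motifs in this window. Over 32851 RefSeq promoter windows of the same length, 12.4% hold the TATA box, 6.02% the E-box, 1.55% the cyclic AMP response element and 0.819% the D-box. A match describes the letters and not a bound site.

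Cass4, on chr2:172393794-172433757, was a low transcript at 0.969, 0.656, 0.793, 1.24 and 0.772 CPM in WT. It was at 3.16, 3.26, 2.68 and 2.61 CPM in treated mice, so the lowest treated library was above the highest WT library. The mean of 0.887 ± 0.229 CPM (SD, n = 5) in WT rose to 2.93 ± 0.330 CPM (SD, n = 4), which is 1.72 on the log2 scale (SE 0.25, adjusted p = 0.00412). In APP/PS1 controls it was at 1.77, 1.52, 1.44, 1.16 and 0.896 CPM, between the other groups on average, with a log2 fold change against WT of 0.61 (adjusted p = 1.00). The direct difference of treated mice from APP/PS1 controls was 1.11 on the log2 scale (SE 0.25, adjusted p = 0.170). Among the other APP/PS1 libraries, 3 of 5 controls, 5 of 5 with a wheel and 5 of 5 with both lay above every WT library. The call was lost without the 3 WT libraries low in Pax7, where the log2 fold change was 1.74 (adjusted p = 0.385). An exon of the predicted gene Gm14455 overlaps Cass4 on the opposite strand, and the sources used here do not say whether counting used strand.

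The keratin genes Krt20 (chr11:99428403-99438150) and Krt12 (chr11:99415666-99422259) lie near each other in the type I keratin cluster on the minus strand. Krt20 was at 4.69, 3.69, 7.45, 4.07 and 3.43 CPM in WT and at 1.78, 1.75, 1.28 and 1.13 CPM in treated mice. All treated libraries were below all WT libraries, and WT replicate 3 was the highest. The log2 fold change was -1.65 (SE 0.26, adjusted p = 0.0109). Krt12 was at 17.7, 18.4, 30.9, 21.9 and 16.2 CPM in WT and at 9.49, 9.63, 6.82 and 7.93 CPM in treated mice. These groups did not overlap either, and WT replicate 3 was again the highest. The log2 fold change was -1.31 (SE 0.22, adjusted p = 0.0158). In APP/PS1 controls Krt20 lay between 1.98 and 4.33 CPM and Krt12 between 11.1 and 19.9 CPM, between the other groups on average. Of these controls 4 of 5 lay below every WT library for Krt20 and 3 of 5 for Krt12. With a wheel alone 3 of 5 did so for Krt20 and 2 of 5 for Krt12, and with wheel and drug 3 of 5 for each. The log2 fold changes of APP/PS1 controls against WT were -0.58 for Krt20 and -0.50 for Krt12 (adjusted p = 1.00 for both). Those of treated mice against APP/PS1 controls were -1.07 (adjusted p = 0.170) and -0.81 (adjusted p = 0.185). Without treated replicate 3 the adjusted p was 0.103 for Krt20 and 0.135 for Krt12, without treated replicate 4 it was 0.111 for both, and in each of these fits the direction was kept. Without the 3 WT libraries low in Pax7 the log2 fold change was -1.46 for Krt20 (adjusted p = 0.385) and -1.01 for Krt12 (adjusted p = 0.798). The antisense transcript A830036E02Rik overlaps an exon of Krt12.

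Wnt9a, on chr11:59306928-59333552, had the largest fold difference of the 6. It was at 16.1, 21.8, 13.4, 23.99 and 22.5 CPM in WT and at 4.78, 4.29, 4.31 and 2.63 CPM in treated mice. Every treated library was below every WT library. The mean of 19.6 ± 4.56 CPM (SD, n = 5) in WT fell to 4.00 ± 0.944 CPM (SD, n = 4), which is -2.29 on the log2 scale (SE 0.40, adjusted p = 0.0304). APP/PS1 controls were at 9.39, 22.2, 15.9, 16.02 and 20.4 CPM, and 4 of these 5 lay within the WT range. The log2 difference of treated mice from APP/PS1 controls was -2.07 (SE 0.40, adjusted p = 0.148). With drug and wheel together, 4 of 5 libraries lay below every WT library, and with the wheel alone 1 of 5 did. Wnt9a was not called with the dorsal midbrain covariate (log2 fold change -2.30, adjusted p = 0.0972) or without the 3 WT libraries low in Pax7 (-2.28, adjusted p = 0.385). The call was the least stable of the 6: leaving out 1 library at a time kept it in 2 of 9 cases, with an adjusted p between 0.0288 and 0.197 and a log2 fold change between -2.41 and -2.14. Of 18 measured Wnt ligands, Wnt9a alone was called, 12 had a log2 fold change below 0, and the median was -0.30. Wnt4, the next by p, was at 13.4 ± 10.1 CPM (SD, n = 5) in WT and 6.41 ± 1.23 CPM (SD, n = 4) in treated mice (log2 fold change -1.06, adjusted p = 0.493).

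**Figure D3:**
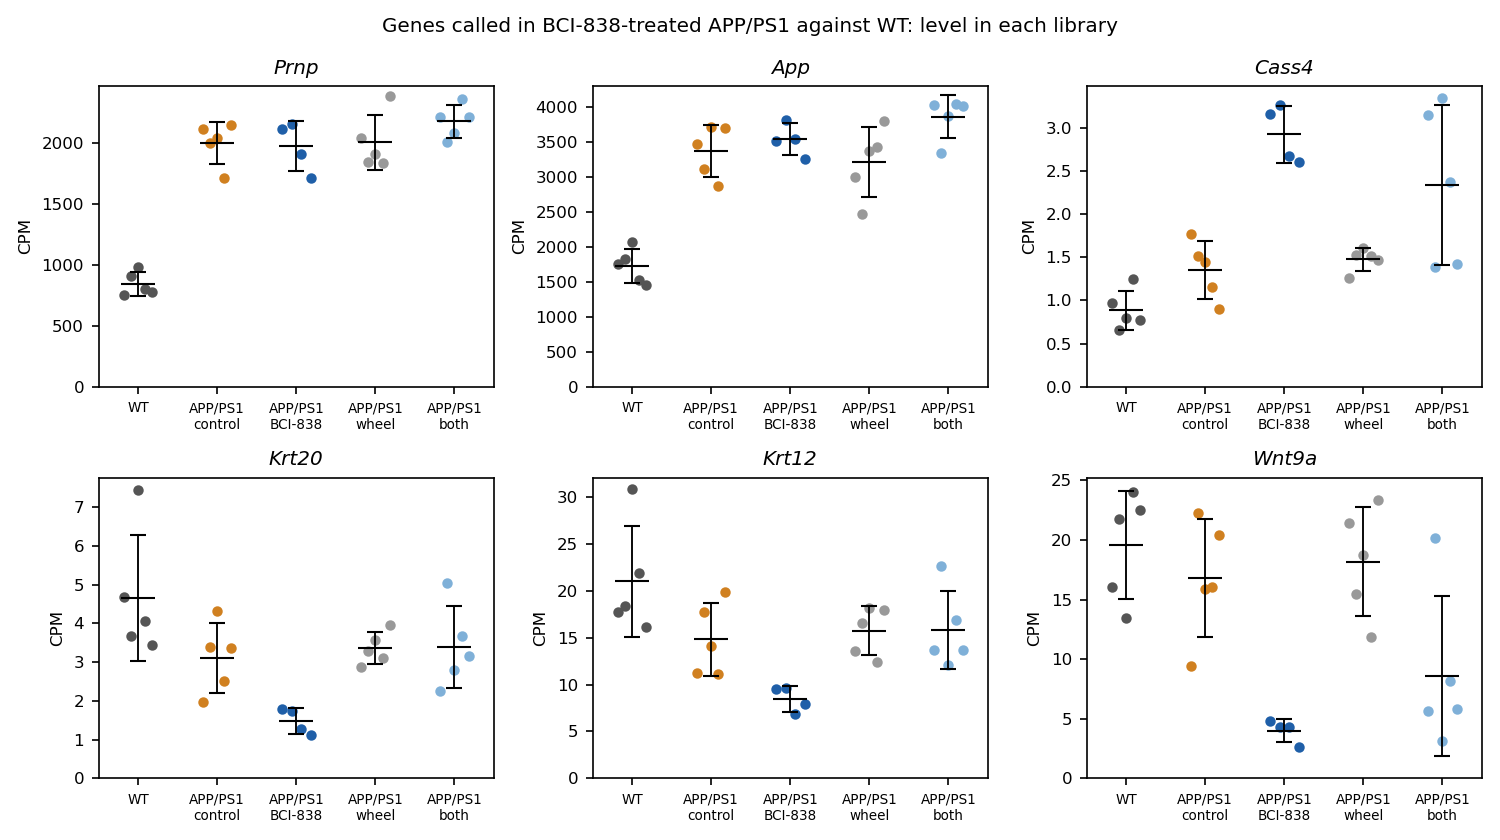
CPM of the 6 called genes in each library of the 5 groups, with bars for the mean and SD (axes start at 0). Prnp and App are high in every APP/PS1 group, the 4 libraries with BCI-838 alone lie at 2.61 to 3.26 CPM for Cass4, above every WT and APP/PS1 control library, and below all of these for Krt20, Krt12 and Wnt9a.

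The genes next in order did not pass the threshold. Bhlhe41, a transcriptional repressor of the circadian clock on chr6:145858243-145865558, was at 34.0, 36.9, 24.7, 29.9 and 31.4 CPM in WT and at 45.6, 68.7, 72.5 and 66.8 CPM in treated mice. The groups did not overlap, and treated replicate 1 was nearest to WT (2.02-fold, adjusted p = 0.0791). Rprm, a mediator of cell cycle arrest on chr2:54084093-54085552, was at 15.9, 21.0, 17.5, 21.0 and 22.0 CPM in WT and at 48.2, 157, 132 and 134 CPM in treated mice, again with replicate 1 nearest to WT. It was 6.04-fold higher (adjusted p = 0.102), and all 5 APP/PS1 controls, at 27.3 to 65.5 CPM, were also above every WT library. Without treated replicate 1 both genes passed, Bhlhe41 at an adjusted p of 0.0379 and Rprm at 0.0434. This was the 1 fit of 9 with 1 library left out in which each passed. The adjusted p over the 9 reached 0.342 for both.

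On the lower side, Adra1d, the alpha-1D adrenergic receptor on chr2:131545850-131562283, was at 46.4, 67.9, 74.0, 68.1 and 53.1 CPM in WT. Treated libraries were at 29.0, 26.8, 28.2 and 11.8 CPM, all below WT (2.58-fold lower, adjusted p = 0.0650). Fam160a1, on chr3:85660061-85817291, was at 7.59, 10.8, 5.33, 14.3 and 13.3 CPM in WT and at 3.44, 2.44, 3.13 and 2.41 CPM in treated mice. It was 3.59-fold lower with no overlap (adjusted p = 0.0834), while no APP/PS1 control library lay below the WT range. DESeq2 and voom called all 4 of these genes. Without the 3 WT libraries low in Pax7 the log2 fold changes were 0.95 for Bhlhe41, 2.63 for Rprm, -1.06 for Adra1d and -1.88 for Fam160a1, with an adjusted p of 0.450 for Fam160a1 and 1 for the other 3.

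A few further genes were chosen after their values were seen, because of the size of their difference. Fst, which encodes follistatin, a secreted binder of activins, was at 1.32 to 4.43 CPM in WT and at 0.0686 to 0.171 CPM in treated mice. It was 20.7-fold lower without overlap (log2 fold change -4.37, SE 0.89, adjusted p = 0.102), and APP/PS1 controls were at 0.685 to 3.32 CPM. Col6a1, a collagen VI chain, was at 3.69 to 20.0 CPM in WT and at 88.9, 92.0, 49.6 and 118 CPM in treated mice (9.25-fold higher, adjusted p = 0.104). Its APP/PS1 controls were at 22.8, 8.75, 46.9, 35.1 and 10.7 CPM, with 3 of 5 above every WT library (log2 fold change against WT 1.40, adjusted p = 1.00). Fbln2, a matrix fibulin, was at 4.63 to 9.39 CPM in WT and 18.7 to 39.0 CPM in treated mice (3.61-fold higher, adjusted p = 0.102). Tmc6 was at 4.34 to 7.15 CPM and 10.99 to 34.7 CPM (3.76-fold higher, adjusted p = 0.102). Above every WT library were 2 of 5 APP/PS1 controls for Fbln2 and 3 of 5 for Tmc6. In all 4 genes every treated library lay on 1 side of every WT library, as did 339 genes above (1.85%) and 323 genes below (1.77%) among all tested. DESeq2 and voom called all 4. Of 21 alternative fits, Fst, Fbln2 and Tmc6 were called in 4 each and Col6a1 in 3. Without the 3 WT libraries low in Pax7 these genes were not called (adjusted p = 0.751 for Fst, the lowest of them).

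The circadian clock list had the highest share of low p-values of the pathway lists. Clock genes form a feedback loop in which Arntl and its partners activate the repressors that later silence them. Of 18 measured members edgeR called 0, DESeq2 and voom called 1, Bhlhe41, and 8 (44.4%) had an unadjusted p under 0.05, 5 of them higher and 3 lower, against 7.47% of all genes. Arntl, the activator, was at 42.7, 41.8, 52.0, 44.4 and 39.8 CPM in WT and at 37.9, 29.0, 27.1 and 25.6 CPM in treated mice (log2 fold change -0.56, SE 0.19, adjusted p = 0.429). Dbp, a transcription factor driven by that activator, was at 41.8, 36.8, 46.95, 36.7 and 34.6 CPM in WT and at 46.97, 76.9, 65.4 and 76.3 CPM in treated mice (0.75, SE 0.26, adjusted p = 0.453). Nr1d2, a nuclear receptor that represses Arntl, was at 98.1 to 135 CPM in WT and 142 to 174 CPM in treated mice (0.45, SE 0.16, adjusted p = 0.454). So Arntl was below and Dbp and Nr1d2 above every WT library, with treated replicate 1 nearest to WT in each. In APP/PS1 controls the log2 fold changes against WT were -0.18 for Arntl, 0.22 for Dbp and 0.01 for Nr1d2. With a wheel and no drug, Arntl was below every WT library in 4 of 5 libraries. Dbp was above every WT library in 4 of these 5 and Nr1d2 in 2. With wheel and drug 3 of 5 were below for Arntl, and 3 and 2 above for Dbp and Nr1d2. In that group 1, 2 and 2 libraries lay beyond WT on the opposite side. The list's median was 0.08, and -0.01 with the dorsal midbrain covariate, where 0 were called. The sources used here do not give the time of day at which tissue was collected.

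**Figure D4:**
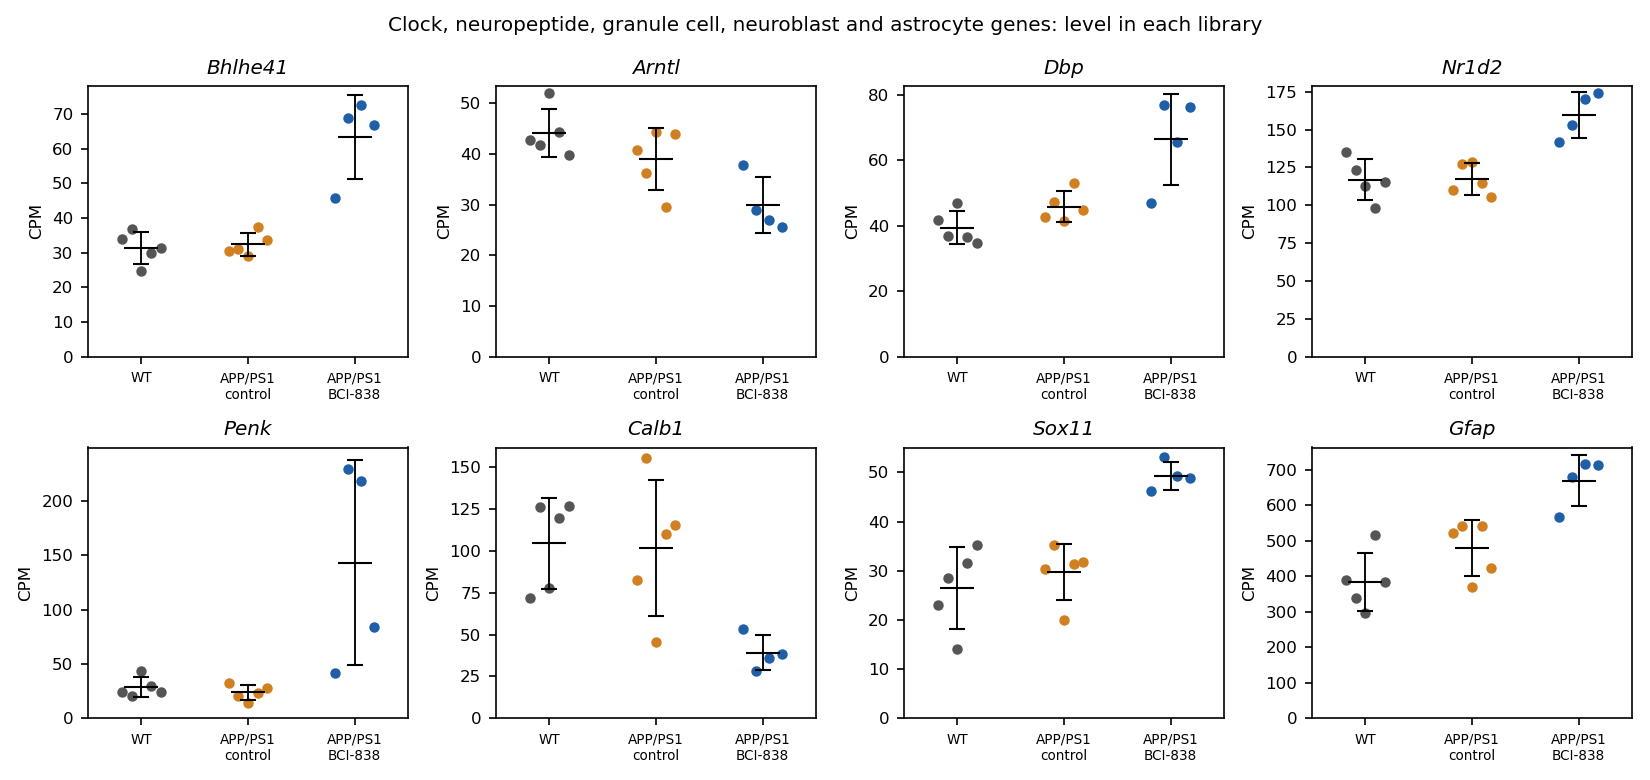
CPM of 8 genes of the clock, neuropeptide, granule cell, neuroblast and astrocyte lists in each WT, APP/PS1 control and BCI-838-treated APP/PS1 library, with bars for the mean and SD. Treated libraries lie outside the WT range for every gene shown but Penk, where treated replicate 1 (42.0 CPM) is below the highest WT library (43.6 CPM).

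Among 21 measured neuroblast and immature neuron genes, edgeR and DESeq2 called 0 and voom called 2 (Dcx higher and Neurod2 lower). An unadjusted p under 0.05 was found for 8 (38.1%), 7 higher and 1 lower, against 7.47% of all genes. The list's median was 0.17. Sox11, a transcription factor of immature neurons, was at 23.1, 28.6, 14.0, 31.6 and 35.3 CPM in WT and at 46.2, 53.1, 49.2 and 48.8 CPM in treated mice. The groups did not overlap (log2 fold change 0.89, SE 0.24, adjusted p = 0.295). Dcx, the microtubule protein used to mark neuroblasts, averaged 27.9 CPM in WT and 40.3 CPM in treated mice (0.53, SE 0.21, adjusted p = 0.556), and Igfbpl1 averaged 2.62 and 7.97 CPM (1.603, SE 0.58, adjusted p = 0.491). Neurod2, a factor of maturing neurons, averaged 234 CPM in WT and 138 CPM in treated mice (-0.76, SE 0.27, adjusted p = 0.469).

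Of 22 measured granule cell markers, edgeR called 0, DESeq2 and voom called 2, Calb1 and Tdo2, and 5 had an unadjusted p under 0.05, 4 of them lower. Calb1, the calcium buffer calbindin of mature granule cells, was at 72.0, 126, 77.9, 120 and 127 CPM in WT and at 53.5, 28.5, 36.3 and 38.3 CPM in treated mice. Every treated library was lower (log2 fold change -1.42, SE 0.36, adjusted p = 0.255), and treated replicate 1 was nearest to WT. Tdo2, the tryptophan dioxygenase enriched in granule cells, was at 5.10, 12.9, 1.19, 14.9 and 14.6 CPM in WT and at 2.79, 1.596, 0.977 and 0.870 CPM in treated mice (-2.65, SE 0.71, adjusted p = 0.287), with WT replicate 3 inside the treated range. Dsp, a desmosomal plaque protein, was at 54.8, 121, 4.32, 193 and 187 CPM in WT and at 49.4, 20.4, 16.9 and 13.9 CPM in treated mice, and WT replicate 3 was again the lowest (-2.16, SE 0.80, adjusted p = 0.502). The summed level of the list was 1155 to 3574 CPM in WT and 1860 to 2570 CPM in treated mice, so the ranges overlapped, and the median log2 fold change was -0.16. Of 20 measured stem cell and proliferation genes, edgeR, DESeq2 and voom called 0, and 2 had an unadjusted p under 0.05, Top2a (1.43 CPM in WT and 2.63 CPM in treated mice) and Prc1 (4.42 and 5.76 CPM).

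Penk, an opioid peptide precursor, was 5.03-fold higher in value. Of 31 measured neuropeptides and receptors, edgeR called 0, DESeq2 called 2 (Penk higher and Cck lower), voom called 1 (Penk), and 8 had an unadjusted p under 0.05, 5 higher and 3 lower. Penk, which encodes the precursor of enkephalins, was at 24.4, 20.9, 43.6, 29.9 and 23.8 CPM in WT and at 42.0, 230, 218 and 83.6 CPM in treated mice. Treated replicates 2, 3 and 4 were above all WT libraries and replicate 1 was not (log2 fold change 2.33, SE 0.50, adjusted p = 0.104). Of 21 alternative fits Penk was called in 3: DESeq2, voom and the fit without treated replicate 1. Oprd1, the delta opioid receptor that enkephalin binds, was at 11.3 to 18.3 CPM in WT and 23.1 to 33.7 CPM in treated mice (0.78, SE 0.24, adjusted p = 0.355). Cck, the cholecystokinin precursor, was at 174, 255, 529, 235 and 179 CPM in WT and at 150, 135, 126 and 115 CPM in treated mice (-1.06, SE 0.30, adjusted p = 0.316). The groups did not overlap, though WT replicate 3 stood well above the other WT libraries.

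Of 15 measured GABA receptor genes edgeR and DESeq2 called 0, voom called 1, Gabrd, and 5 had an unadjusted p under 0.05, 2 higher and 3 lower. Gabrd, the delta subunit of extrasynaptic receptors on granule cells, was at 40.7, 87.1, 45.5, 47.5 and 42.7 CPM in WT and at 29.3, 37.4, 27.4 and 26.1 CPM in treated mice (log2 fold change -0.81, SE 0.23, adjusted p = 0.313). Every treated library was below every WT library. Of 32 ionotropic glutamate receptor and postsynaptic density genes, edgeR, DESeq2 and voom called 0, and 3 (9.38%) had an unadjusted p under 0.05. A log2 fold change below 0 was found for 25, and the median was -0.17. Of 27 synaptic vesicle and active zone genes the 3 tools called 0, and 6 had an unadjusted p under 0.05, 2 higher and 4 lower. Syn3, synapsin III, was at 56.1 to 112 CPM in WT and 136 to 154 CPM in treated mice (0.66, SE 0.19, adjusted p = 0.312). Of 41 potassium channel genes the 3 tools called 0, and 3 (7.32%) had an unadjusted p under 0.05, near the 7.47% of all genes.

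Immediate early genes, which neurons switch on when they fire, had 16 of 21 measured members with a log2 fold change below 0 and a median of -0.30. The 3 tools called 0, and 6 had an unadjusted p under 0.05, 2 higher and 4 lower. Egr4 was at 16.6, 13.7, 34.9, 20.8 and 21.6 CPM in WT and at 14.5, 11.4, 9.72 and 9.40 CPM in treated mice, and replicate 1 of the treated group reached into the WT range (log2 fold change -0.94, SE 0.30, adjusted p = 0.398). Fosl2 was at 31.4 to 56.6 CPM in WT and at 48.0, 125, 106 and 75.0 CPM in treated mice (0.91, SE 0.34, adjusted p = 0.500).

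Reactive astrocyte genes had a log2 fold change above 0 in 18 of 23 measured members, beside 48.8% of all genes, with a median of 0.21. EdgeR and DESeq2 called 0, voom called 2, C4b and S100a10, and 5 had an unadjusted p under 0.05, 4 higher and 1 lower. Gfap, the intermediate filament of astrocytes, was at 389, 339, 298, 516 and 384 CPM in WT and at 567, 681, 717 and 715 CPM in treated mice. Each treated library was higher than each WT library (log2 fold change 0.80, SE 0.24, adjusted p = 0.341), and APP/PS1 controls were at 369 to 543 CPM, 3 of 5 above every WT library. C4b, a complement component, was at 53.7, 40.5, 34.1, 54.5 and 44.4 CPM in WT and at 66.0, 83.7, 78.6 and 82.7 CPM in treated mice (0.77, SE 0.22, adjusted p = 0.313). Of 18 complement genes edgeR and DESeq2 called 0, voom called 1, C4b, and 3 had an unadjusted p under 0.05, 2 higher and 1 lower. The largest difference in both lists was a lower one. Log2 fold changes ran from -1.35 to 0.93 in the reactive astrocyte list and from -1.35 to 0.77 in the complement list.

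Disease-associated microglia genes, which rise in microglia around plaques, had 16 of 24 measured members above 0 and a median of 0.09. The 3 tools called 0, and 4 had an unadjusted p under 0.05, 2 higher and 2 lower. Gpnmb, a membrane glycoprotein of that state, was at 7.91, 8.30, 1.98, 12.3 and 13.5 CPM in WT and at 13.4, 32.0, 26.3 and 19.5 CPM in treated mice (1.37, SE 0.49, adjusted p = 0.473). Treated replicate 1 was within the WT range. Log2 fold changes in this list ran from -1.13 to 1.37. In 1 member of 24 every treated library lay below every WT library, and in 0 members above, beside 1.77% and 1.85% of all genes. Of 17 homeostatic microglia genes and of 23 oligodendrocyte and myelin genes, the 3 tools called 0 and 0 had an unadjusted p under 0.05, with medians of -0.02 and -0.01. Of 20 resting astrocyte genes and 19 interferon response genes, the 3 tools called 0. In each list 2 (10% and 10.5%) had an unadjusted p under 0.05.

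Among genes of cell survival, Hrk was 2.63-fold lower in value. Of 17 measured Bcl2 family genes edgeR called 0, DESeq2 and voom called 1, Hrk, and 4 had an unadjusted p under 0.05, 1 higher and 3 lower. Hrk, a neuronal promoter of apoptosis, was at 49.9, 63.0, 42.1, 84.7 and 87.4 CPM in WT and at 32.2, 26.0, 20.6 and 20.8 CPM in treated mice. The groups did not overlap (log2 fold change -1.40, SE 0.30, adjusted p = 0.104), and no APP/PS1 control library lay below the WT range. Of 27 trophic factors and receptors edgeR and DESeq2 called 0, voom called 1, Ntf3, and 5 had an unadjusted p under 0.05, 2 higher and 3 lower. Ntf3, the neurotrophin-3 gene, was at 5.52, 10.4, 4.54, 13.4 and 11.8 CPM in WT and at 4.80, 0.927, 0.522 and 1.25 CPM in treated mice (-2.28, SE 0.66, adjusted p = 0.316). Treated replicate 1 lay within the WT range and the other 3 were below it.

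Of 25 BMP signalling genes the 3 tools called 0, and 4 had an unadjusted p under 0.05, all of them higher. Id3 and Id1, direct targets of BMP signals, were at 24.1 to 35.5 and 8.32 to 12.0 CPM in WT and at 37.6 to 44.0 and 12.1 to 15.6 CPM in treated mice, without overlap (log2 fold changes 0.48 and 0.43, adjusted p = 0.434 and 0.524). APP/PS1 controls were also higher than WT in value for both (0.35 and 0.37, adjusted p = 1.00 for both). Sulf1, an extracellular heparan sulfatase, was between 3.24 and 7.51 CPM in WT and between 4.77 and 8.19 CPM in treated mice, which overlapped (0.22, SE 0.29, adjusted p = 0.920). Its APP/PS1 controls were at 6.73 to 26.1 CPM, and 4 of these 5 lay above every WT library. The highest, control replicates 2, 4 and 5 at 11.9, 26.1 and 17.1 CPM, also had Ttr at 425, 1615 and 1269 CPM. The part of choroid plexus RNA in the Sulf1 levels of these controls was not tested.

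Of 62 respiratory chain and ATP synthase genes 58 had a log2 fold change below 0, with a median of -0.09, and of 72 cytosolic ribosomal protein genes 58 were below 0, with a median of -0.03. The 3 tools called 0 in both lists, and 1 and 0 genes had an unadjusted p under 0.05. Of 29 heat shock and unfolded protein response genes edgeR and DESeq2 called 0, voom called 1, Dnajb5, and 1 had an unadjusted p under 0.05. Of 20 cholesterol genes the 3 tools called 0, and 3 had an unadjusted p under 0.05, all lower.

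**Figure D5:**
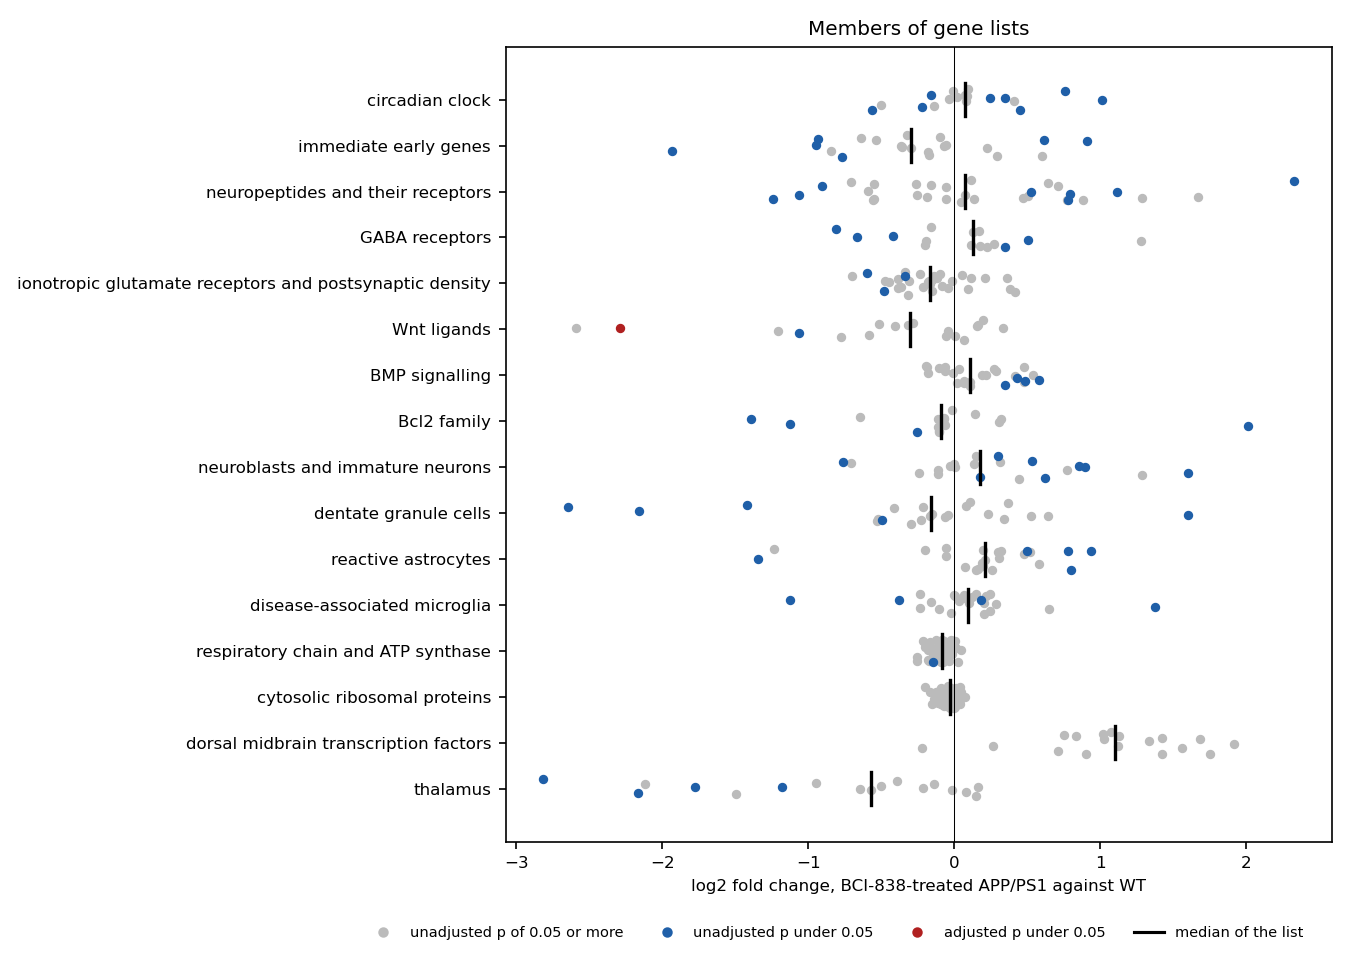
Log2 fold change of BCI-838-treated APP/PS1 against WT for each measured member of 16 gene lists, with the list's median as a bar and colours for the unadjusted and adjusted p. Wnt9a is the 1 member called among these lists, 8 of 18 clock genes have an unadjusted p under 0.05, and the dorsal midbrain list lies to the right (median 1.10).

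Markers of other tissue were described in the same way. Of 18 measured dorsal midbrain transcription factors 17 had a log2 fold change above 0, with a median of 1.10, and the 3 tools called 0 and 0 had an unadjusted p under 0.05. In thalamus markers 14 of 17 were below 0, the 3 tools called 0, and 4 had an unadjusted p under 0.05, all lower. The thalamus sum was 258 to 2249 CPM in WT, highest in replicate 2, and 406 to 753 CPM in treated mice. In the choroid plexus and ependyma list, with 215 to 314 CPM in WT and 219 to 277 CPM in treated mice, the 3 tools called 0 of 21 and 4 had an unadjusted p under 0.05. Tmem212 of that list was at 0 in all treated libraries.

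Among mural cell and fibroblast genes the 3 tools called 0 of 16, 5 had an unadjusted p under 0.05, 4 of them higher, and the median was 0.39. Col1a1, a fibrillar collagen, was at 4.86 to 13.8 CPM in WT and at 7.76, 26.0, 29.6 and 22.2 CPM in treated mice (log2 fold change 1.24, SE 0.42, adjusted p = 0.453), so replicate 1 stayed within the WT range. For hippocampal CA field and mossy cell genes edgeR and voom called 0 of 24, DESeq2 called 1, Cck, and 4 had an unadjusted p under 0.05, all lower. For neocortex edgeR called 0 of 11, DESeq2 and voom called 1, Rprm, and 3 had an unadjusted p under 0.05. For interneurons edgeR called 0 of 20, DESeq2 and voom called 1, Penk, and 2 had an unadjusted p under 0.05. For brain endothelium and red blood cells the 3 tools called 0 of 16 and 0 of 3, with 1 and 0 at an unadjusted p under 0.05. The part of these tissue differences in the results for single genes was not tested beyond the covariate fits and the fit without the 3 WT libraries. Over 21 alternative fits, these among them, log2 fold changes of list genes varied in size. They ran from -1.19 to -0.43 for Cck, -0.94 to -0.48 for Gabrd and -0.70 to -0.385 for Arntl. For Id3 they ran from 0.28 to 0.55, and for Col1a1 from 0.69 to 1.51.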

How the data were processed

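RNA from the dentate gyrus of single mice was sequenced. The authors deposited whole-number read counts per gene for the 24 libraries; STAR, HTSeq, DESeq and the build mm10 are named per the submitters' processing notes, with versions, strand setting and read layout not given in the sources used here. The deposited table of the authors' normalised signal was not used. Of 26667 genes, 18286 passed edgeR's filterByExpr (minimum count 10, minimum total 15). A model with TMM scaling and 1 mean per group was fitted over all 24 libraries (edgeR 4.0.16 in R 4.3.3, robust quasi-likelihood F test, Benjamini-Hochberg adjustment, threshold 0.05). Standard errors are |log2 fold change| / sqrt(F). Alternatives used DESeq2 1.42.0, limma 3.58.1, other size factors and filters, covariates, a replicate block and left-out libraries.

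All called genes were named, then the next by p up to 5 in each direction (at most 12), leaving out predicted genes; Prnp, App, Grm2, Grm3, Hrk, Fam160a1 and Sulf1 were always named, and up to 4 members by p of each of 36 gene lists. Gene lists, named genes and libraries were chosen with earlier results of these data known. Some genes that this rule selects are not reported here. A few further list members are named where another tool called them. Coordinates are from GENCODE for GRCm38, the assembly that mm10 names, and 55 of 55 named genes matched. Promoters are from RefSeq (GRCm38.p6), matched by symbol for 4 of 4 genes. The lowest chi-square per gene between 2 libraries was 18.6, so none was a duplicate. On simulated counts for 18128 genes in this comparison, the fit called 42.9% of true 1.5-fold changes, 57.6% of 2-fold and 81.2% of 4-fold ones, with 6 false calls. The simulation changed 77, 59 and 64 genes by these folds, which makes the adjusted threshold easier to pass. Each gene was drawn on its own around a common mean, without differences in tissue content. The percentages may therefore be too high for the real comparison, where Fst, 20.7-fold lower, was not called.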

Additional observations from a re-analysis of the deposited data

Results flagged for a closer look

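Of 110 sets of library values (55 named genes in the WT and the treated group), 8 held a library that stood apart from the others of its group by Dixon's criterion, which chance meets in about 1 in 20. In treated mice these were Adra1d at 11.8 CPM and Egr2 at 0.409 CPM in replicate 4, Grm2 at 100.3 CPM and C3ar1 at 3.16 CPM in replicate 2, and Ntf3 at 4.80 CPM in replicate 1. In WT they were Gabrd at 87.1 CPM and Gabbr2 at 378 CPM in replicate 2, and Cck at 529 CPM in replicate 3. The Adra1d value lies further from WT than those of the other 3 treated libraries, and the Ntf3 value lies nearer to WT. WT replicate 2 also had the highest thalamus marker sum of the WT libraries (2249 CPM), and WT replicate 3 the lowest granule cell marker sum (1155 CPM).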

How the results depend on the processing

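In treated mice against WT, where edgeR called 6 genes, DESeq2 called 75, voom 181, the fit with the granule cell covariate 51 and that with the dorsal midbrain covariate 3. Without the 3 WT libraries low in Pax7, chosen after seeing the data, 2 were called. Leaving out 1 library at a time gave 3 to 11 calls: 3 without treated replicate 3 or 4, where Krt20, Krt12 and Wnt9a were lost, and 11 without treated replicate 1. The compared libraries alone gave 9 calls without Krt20 and Krt12. In APP/PS1 controls against WT the 2 calls became 14 with DESeq2 and 1 with the compared libraries alone, and 2 to 3 with 1 library left out. The genes gained with DESeq2 included Ttr, Aqp1, Kcne2 and Kcnj13 of the choroid plexus list, and Sulf1. Ttr was at 425 CPM or more in APP/PS1 control replicates 2, 4 and 5. Without the libraries over 100 Ttr CPM edgeR again called 2 genes in this comparison. In treated mice against APP/PS1 controls the 0 calls became 170 with DESeq2, 483 with voom, 24 with the granule cell covariate, 9 with the compared libraries alone, and 0 to 12 with 1 library left out, 12 without APP/PS1 control replicate 1. The causes were not tested. Of 21 alternatives, Prnp and App were called in 21, Cass4 in 20, Krt20 and Krt12 in 16 and Wnt9a in 9, and the direction of these 6 did not turn. The log2 fold change of Sulf1 turned to -0.16 without the 3 WT libraries low in Pax7. With the replicate number as a block 5 genes were called and Wnt9a was not (adjusted p = 0.0528). The numbers share no design in the labels, and the correlations of same-numbered libraries were -0.14, 0.037, 0.045 and -0.21. No other size factor or filter changed these calls, apart from Adra1d, called with a filter of 1 CPM in 4 libraries. Cass4 and Krt20 were low, at a few CPM, and differences of 1.5-fold were often not detectable with 4 and 5 libraries.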
